A study of Mus musculus with 2 samples.

Results

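The genes described here are 10 members of the vascular endothelial growth factor (VEGF) and angiopoietin systems of the mouse, of 32285 genes listed in both count matrices. They comprised 5 ligands (Vegfa, Vegfb, Vegfc, Pgf and Angpt2) and 5 receptors (Kdr, Flt1, Flt4, Tek and Tie1), chosen by symbol from a list made with earlier results of these data known, and each symbol matched 1 gene. Their transcripts were counted by 10x Genomics 3′ single-cell RNA sequencing of colorectal tumours in 2 libraries, STK25 wKO and WT. Per the study, both groups of mice were treated with azoxymethane and dextran sulphate sodium to induce the tumours, and STK25 wKO mice lacked Stk25, a serine/threonine kinase gene, in the whole body. The tumours of each genotype were pooled, so that each group was 1 library. The strain, age and number of mice in each pool are not given in the sources used here. The series' design text mentions a sort on mCherry without saying which fraction each library held.

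VEGF ligands are secreted proteins that bind receptor tyrosine kinases on endothelial cells. VEGF-A acts mainly through the receptors encoded by Kdr and Flt1 on blood vessels, VEGF-B and placental growth factor bind the Flt1 product, and VEGF-C acts on the Flt4 product, which directs lymphatic growth. The angiopoietins act on the Tie receptors encoded by Tek and Tie1: angiopoietin 1 keeps vessels quiet, whereas angiopoietin 2, made by endothelial cells in remodelling vessels, competes with it.

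The STK25 wKO library held 14168 barcodes with 66297749 unique molecular identifiers (UMIs, each a count of 1 captured transcript), and the WT library held 12542 barcodes with 38737373 UMIs. After filtering, 13883 STK25 wKO cells with a median of 2091 UMIs and 12270 WT cells with a median of 1383 UMIs remained. The libraries shared 230 barcodes. Stk25 itself was counted at 127 per 1000000 UMIs (CPM, with an exact Poisson interval of 124 to 130) under the label STK25 wKO and at 118 CPM (115 to 122) under the label WT. The label is therefore not borne out by a lower Stk25 count, although 3′ counts cannot show whether an exon elsewhere in the gene is missing. Cells were assigned to 12 classes by marker genes, so that a class name means cells that resembled that type, and the 10 genes took no part in the clustering. Clusters 0 and 2 stayed unnamed, with 2674 STK25 wKO cells and 2265 WT cells. Each was mostly of 1 library: cluster 0 held 2524 STK25 wKO and 375 WT cells, and cluster 2 held 150 STK25 wKO and 1890 WT cells. With 1 library per group, no test between groups was possible. All intervals have a level of 95% and cover counting error within these libraries only, not the difference between mice. Those of levels and ratios treat each UMI as independent, so that they are too narrow where many UMIs lie in few cells.

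Blood endothelial cells, the main targets of these ligands, made up 578 cells (4.16% of all cells) in the STK25 wKO library and 274 cells (2.23%) in the WT library. Lymphatic endothelial cells made up 233 cells (1.68%) in the STK25 wKO library and 196 cells (1.60%) in the WT library. These shares depend on dissociation and on any sort, which cannot be told apart from genotype. At least 10% of cells had a UMI for 11 of 12 blood endothelial markers in STK25 wKO blood endothelial cells and for 12 of 12 in WT cells. No lymphatic marker reached that share in these cells. Of 8 lymphatic markers, 7 reached it in the lymphatic endothelial cells of both libraries.

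Transcripts of other cells were also counted in these classes. The 13 epithelial markers summed to 2337 CPM in STK25 wKO and 2017 CPM in WT blood endothelial cells, with none at 0, and to 3515 and 1697 CPM in STK25 wKO and WT lymphatic endothelial cells. The 9 neutrophil markers summed to 1162 CPM in STK25 wKO and 136 CPM in WT blood endothelial cells, and 0 of 9 in the STK25 wKO cells and 2 of 9 in the WT cells were at 0. In the lymphatic class the neutrophil markers summed to 1145 CPM (STK25 wKO) and 171 CPM (WT), with none at 0. The 5 red blood cell markers summed to 599 CPM in STK25 wKO and 14.1 CPM in WT blood endothelial cells, with 0 and 3 at 0. The 11 macrophage markers summed to 742 CPM in STK25 wKO and 382 CPM in WT blood endothelial cells, with 0 and 2 at 0. The part of these transcripts in the values below was not tested, except where a value is given without the cells concerned.

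**Figure D1:**
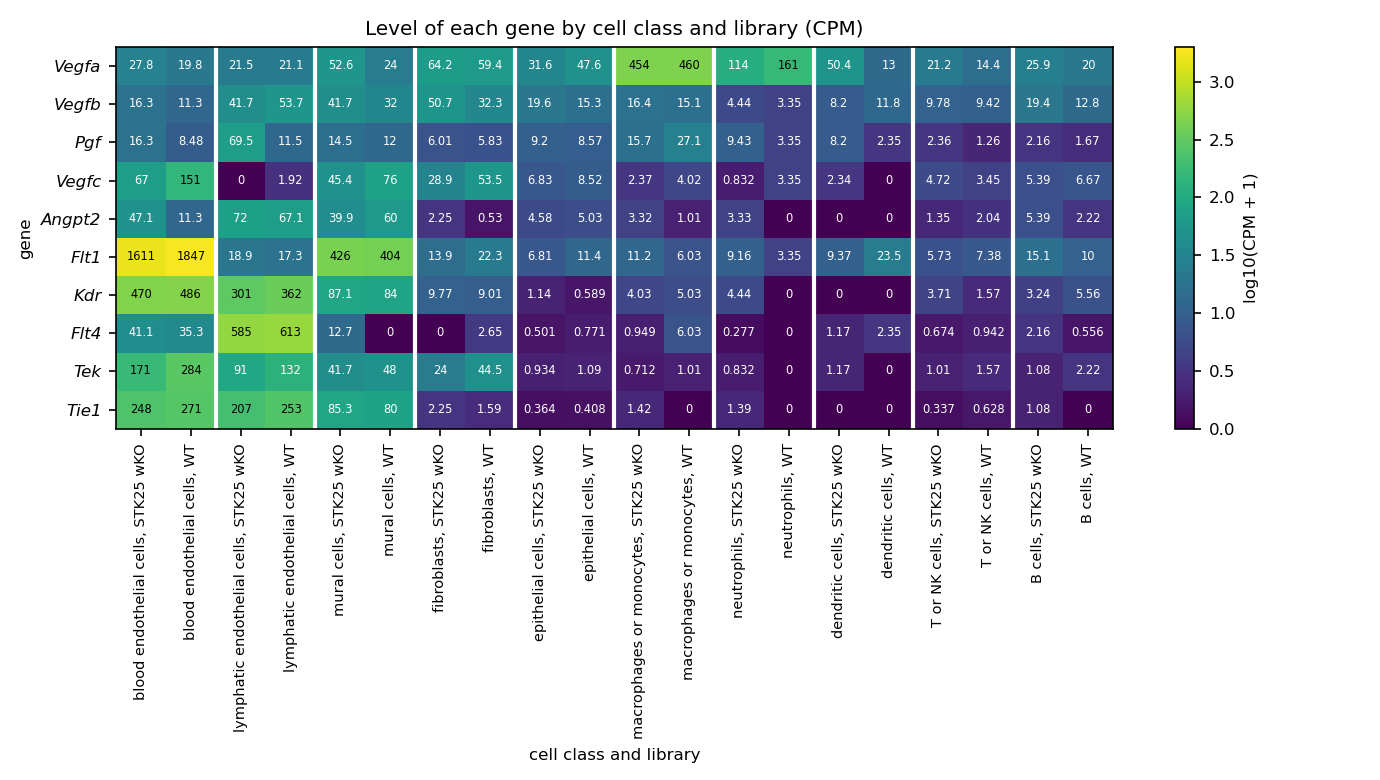
Level of each gene (rows) in CPM, summed over all cells of a class in 1 library (columns, STK25 wKO left of WT in each pair), with the colour on a log10(CPM + 1) scale. Vegfa stood highest in macrophages (454 CPM in STK25 wKO, 460 CPM in WT), whereas the receptor genes Kdr, Flt4, Tek and Tie1 stood highest in blood or lymphatic endothelial cells.

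Positions are those of the GENCODE annotation of GRCm38. Vegfa (chr17:46016993-46032369, minus strand), which encodes the ligand that drives angiogenesis, had its highest levels in myeloid cells, while macrophages or monocytes held the most Vegfa UMIs in STK25 wKO and epithelial cells held the most in WT. Its level was 454 CPM (434 to 474) in STK25 wKO macrophages or monocytes and 460 CPM (419 to 505) in WT ones, from 1912 and 458 UMIs. Neutrophils followed with 114 CPM (103 to 125) in STK25 wKO and 161 CPM (118 to 213) in WT. In both libraries these 2 classes stood apart from every other class of at least 50 cells, with no overlap of intervals. Fibroblasts came next with 64.2 CPM (55.0 to 74.6) in STK25 wKO and 59.4 CPM (48.9 to 71.4) in WT. Below them, STK25 wKO mural cells (52.6 CPM), dendritic cells (50.4 CPM) and fibroblasts had overlapping intervals. B cells, taken here as a class for comparison, had 25.9 CPM (16.6 to 38.5) in STK25 wKO and 20.0 CPM (14.02 to 27.7) in WT. The intervals of Vegfa in blood and lymphatic endothelial cells overlapped those of B cells in both libraries.

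The ratio of the libraries for Vegfa depended on the source. In macrophages or monocytes the log2 ratio of STK25 wKO to WT was -0.02 (-0.17 to 0.13). A UMI of Vegfa was found in 48.2% of STK25 wKO macrophages or monocytes and in 30.4% of WT ones, at median depths of 2836 and 2173 UMIs, and in 29.6% and 21.8% after thinning. Here thinning means that cells were reduced at random to 1000 UMIs and that cells with fewer were left out, 69 of 1142 STK25 wKO and 41 of 339 WT macrophages or monocytes. In B cells these shares were 3.64% (STK25 wKO) and 1.97% (WT), at median depths of 1225 and 943 UMIs, and 2.25% and 1.70% after thinning, which left out 215 of 660 STK25 wKO and 920 of 1627 WT B cells. The 2 macrophage clusters lay in opposite directions. Cluster 12, led by Chil3, Ccl24, F10, Inhba and Saa3, had 532 CPM in STK25 wKO (683 cells) and 762 CPM in WT (114 cells), a log2 ratio of -0.52 (-0.71 to -0.33). Cluster 14, led by the complement genes C1qc and C1qa with Adgre1, Aoah and Apoe, had 336 CPM in STK25 wKO (459 cells) and 285 CPM in WT (225 cells), a log2 ratio of 0.24 (-0.01 to 0.49). The near-equal class totals therefore combined 2 clusters in different proportions: cluster 12 supplied 683 of 1142 STK25 wKO cells and 114 of 339 WT cells.

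In neutrophils, Vegfa had a log2 ratio of -0.50 (-0.93 to -0.03), from 410 STK25 wKO UMIs and 48 WT UMIs. The larger WT cluster, cluster 9 (led by Ankrd33b, Hdc, 4933432I03Rik, Rab44 and Mirt1), had 152 CPM in STK25 wKO and 144 CPM in WT, a ratio of 0.07 (-0.46 to 0.64). In cluster 10, led by the granule genes Ngp and Retnlg with S100a9, S100a8 and Wfdc21, the level was 96.4 CPM in 858 STK25 wKO cells, whereas the 230 CPM in WT rested on 13 UMIs in 29 cells. Of the members with at least 20 UMIs, none was past 2-fold with an interval that excluded equality in neutrophils (0 of 3, against 11.6% of all genes compared there) or in macrophages or monocytes (0 of 5, against 9.68%). This threshold is called the fold below.

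Dendritic cells differed. Vegfa was counted at 50.4 CPM (36.5 to 67.8) in STK25 wKO, from 43 UMIs in 21 of 143 cells, and at 12.95 CPM (6.46 to 23.2) in WT, from 11 UMIs in 7 of 188 cells. The STK25 wKO interval lay wholly above the WT interval, and the log2 ratio was 1.96 (0.98 to 3.06), a 3.89-fold higher level. Markers of the classes with the most Vegfa were also higher in these cells: the 11 macrophage markers summed to 862 CPM in STK25 wKO and 454 CPM in WT, with none at 0, and the 9 neutrophil markers to 982 CPM in STK25 wKO and 211 CPM in WT, with 0 and 1 at 0. Their part in the Vegfa ratio was not tested. After thinning, 4.29% of STK25 wKO and 1.69% of WT dendritic cells had a UMI, the WT share being about that of B cells. Flt1 was 9.37 CPM in STK25 wKO and 23.5 CPM in WT dendritic cells (8 and 20 UMIs), a log2 ratio of -1.33 (-2.72 to -0.08). Both members with enough UMIs were thus past the fold, in a class where 14.3% of all genes compared were.

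Epithelial cells had 31.6 CPM of Vegfa (29.9 to 33.3) in STK25 wKO and 47.6 CPM (44.7 to 50.5) in WT, from 1387 and 1049 UMIs. The intervals did not overlap, and the log2 ratio was -0.59 (-0.71 to -0.47), against a median of -0.15 over all genes compared in these cells. A UMI was found in 21.4% of STK25 wKO and 25.03% of WT epithelial cells, at median depths of 5392 and 4472 UMIs, and in 5.14% and 6.23% after thinning. None of the 10 members was past the fold in epithelial cells, where 6.86% of all genes compared were. Because epithelial cells were numerous and held many UMIs each, they still had 32.7% of all Vegfa UMIs of the STK25 wKO library and 54.6% of those of the WT library. Macrophages or monocytes held 45.1% (STK25 wKO) and 23.8% (WT).

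Among the 10 epithelial clusters, 4 had lower Vegfa in STK25 wKO with intervals of the ratio below 0. In cluster 6, led by Sult1a1, Hao2, Fabp2, Aadac and Hsd3b3, the level was 25.6 CPM in STK25 wKO and 50.3 CPM in WT (log2 ratio -0.97, -1.24 to -0.70). This cluster was named absorptive by 4 of 7 markers, none of them among its leading genes. Cluster 16, with inflammatory markers and led by Ltf, Prss22, Ly6d, Ly6m and Prss27, had 28.9 CPM in STK25 wKO and 48.2 CPM in WT (-0.74, -1.02 to -0.45). The unnamed cluster 5, led by Aqp8, Car4, Slc15a1, Nlrp9b and Tgm3, had 62.4 CPM in STK25 wKO and 87.8 CPM in WT (-0.49, -0.78 to -0.20). Its leading genes Aqp8 and Car4 are absorptive markers, but the marker set nearest to it was the inflammatory one. In cluster 20, with goblet or deep secretory markers, the values were 26.6 CPM (STK25 wKO) and 55.6 CPM (WT), a ratio of -1.06 (-1.61 to -0.49), but the cells compared differed in depth, with medians of 12176 UMIs in STK25 wKO and 1274 UMIs in WT. By contrast, clusters 7 and 15 with stem-like markers, cluster 17 with goblet markers, the unnamed cluster 13 and the tuft-like cluster 26 had log2 ratios between -0.07 and 0.06. Cluster 29, with enteroendocrine markers, had 10 UMIs of Vegfa in 31 STK25 wKO cells and 0 UMIs in 7 WT cells, too few to compare.

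**Figure D2:**
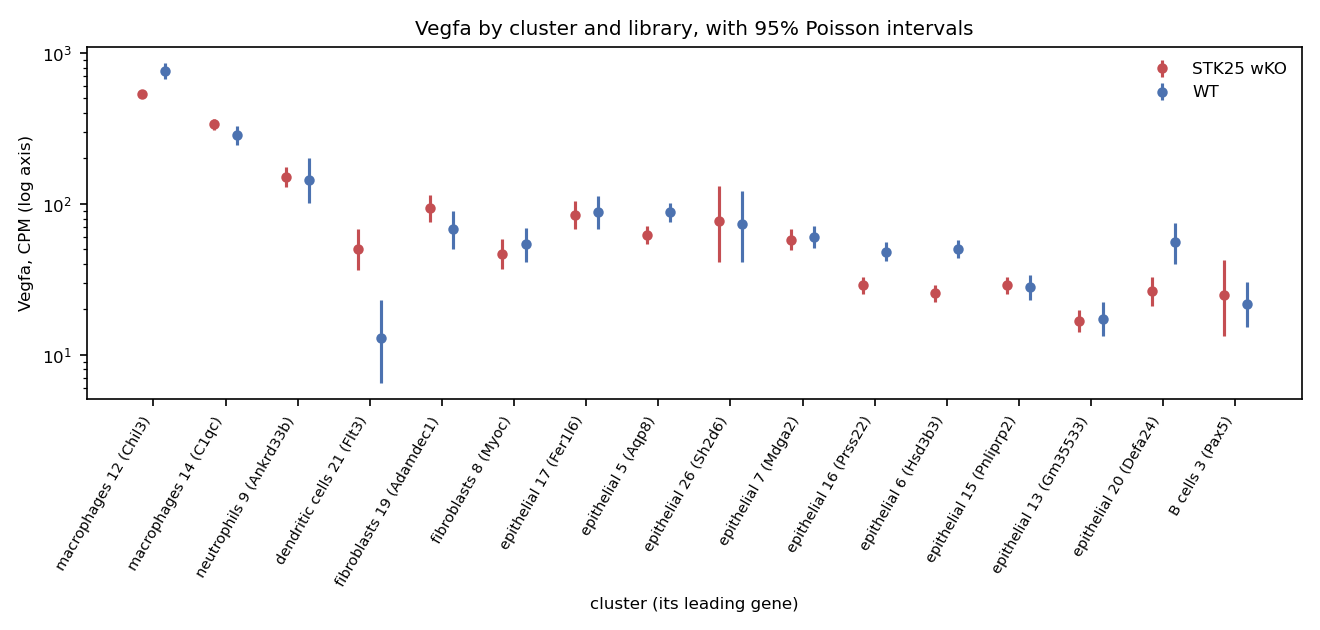
Vegfa level in CPM (log axis) in 16 clusters, each named by its class, number and leading gene, with STK25 wKO left of WT and bars for 95% Poisson intervals. Macrophage cluster 12 stood highest (532 CPM in STK25 wKO, 762 CPM in WT), and among epithelial clusters 6 and 16 the WT points lay above the STK25 wKO points.

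Vegfb (chr19:6982473-6987651, minus strand), whose product binds the Flt1 receptor and is linked to fatty acid handling, was low and widespread. Among classes of at least 50 cells, its highest levels were in fibroblasts with 50.7 CPM (42.5 to 60.01) in STK25 wKO and 32.3 CPM (24.7 to 41.5) in WT, mural cells with 41.7 and 32.0 CPM, and lymphatic endothelial cells with 41.7 and 53.7 CPM in STK25 wKO and WT. Within each library the intervals of these 3 classes overlapped, so that their order is not set by these counts. The fibroblast ratio was 0.65 on the log2 scale (0.20 to 1.11), the intervals of the 2 libraries not overlapping. None of the 7 members compared in fibroblasts was past the fold, against 5.76% of all genes compared there. In epithelial cells Vegfb was 19.6 CPM in STK25 wKO and 15.3 CPM in WT, a ratio of 0.36 (0.17 to 0.54). B cells had 19.4 CPM (STK25 wKO) and 12.8 CPM (WT), so that the epithelial level was no higher than theirs beyond counting error. Within the epithelium, stem-like cluster 15 (led by Pnliprp1, Pnliprp2, Mt3, Mt4 and Bex1) stood above B cells, with 38.5 CPM in STK25 wKO and 30.9 CPM in WT, as did cluster 20 with goblet or deep secretory markers, with 38.6 CPM in STK25 wKO and 41.1 CPM in WT.

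Pgf (chr12:85166635-85177790, minus strand) encodes placental growth factor, a ligand of the Flt1 receptor that is scarce in resting tissue. Most of its UMIs came from epithelial cells (62.8% in STK25 wKO, 71.6% in WT), and within them from cluster 15. That cluster had 39.9 CPM (35.5 to 44.6) in STK25 wKO and 36.2 CPM (30.5 to 42.7) in WT, from 302 and 142 UMIs. A Pgf UMI was found in 137 of 432 STK25 wKO cells (31.7%) and 58 of 185 WT cells (31.4%) of the cluster, whose median depths were 14944 and 15434 UMIs. In B cells 0.303% (STK25 wKO) and 0.184% (WT) of cells had one, and in cluster 15 the share after thinning was 4.73% in STK25 wKO and 1.73% in WT. The libraries did not differ beyond counting error in the level of this cluster (log2 ratio 0.14, -0.15 to 0.44). In macrophages the clusters again lay in opposite directions. Cluster 12 had 59 UMIs in STK25 wKO and 1 in WT (23.3 and 2.73 CPM), a ratio of 3.09 on the log2 scale with the wide interval of 0.56 to 8.42. Cluster 14 had 7 UMIs in STK25 wKO and 26 in WT (4.17 and 41.4 CPM), the WT UMIs lying in 8 cells. In the neutrophil cluster 9, 24 of the 29 STK25 wKO UMIs came from 1 cell.

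Vegfc (chr8:54077606-54187096, plus strand), the lymphangiogenic ligand, had its highest levels in blood endothelial cells, mural cells and fibroblasts. It was hardly counted in the lymphatic endothelial cells that respond to it, with 0 UMIs in STK25 wKO, which allows up to 4.66 CPM, and 1 UMI in WT. Epithelial cells, with 6.83 CPM in STK25 wKO and 8.52 CPM in WT, still held 52.7% of its UMIs in STK25 wKO and 40% in WT by their number and depth. B cells had 5.39 CPM of Vegfc in STK25 wKO and 6.67 CPM in WT, from 5 and 12 UMIs. The level of the epithelial class was thus no higher than theirs beyond counting error. Blood endothelial cells had 67.0 CPM (55.1 to 80.7) in STK25 wKO, from 111 UMIs in 54 cells, and 151 CPM (124 to 183) in WT, from 107 UMIs in 37 cells. The intervals were far apart, and the log2 ratio was -1.17 (-1.57 to -0.78), a level 0.443 of that of WT. In mural cells the values were 45.4 CPM in STK25 wKO and 76.0 CPM in WT, with overlapping intervals. Part of these mural UMIs lay in cells that also had blood endothelial markers, as described below. For fibroblasts the values were 28.9 CPM in STK25 wKO and 53.5 CPM in WT, a ratio of -0.89 (-1.34 to -0.45). This difference lay in cluster 19, led by Adamdec1, Bmp5, Tcf21, Bmp4 and Tenm3, with 33.3 CPM in STK25 wKO (33 UMIs) and 91.6 CPM in WT (66 UMIs), a ratio of -1.46 (-2.11 to -0.84). Cluster 8, led by Myoc, Cilp, Inmt, Sfrp4 and Lum, had 26.3 CPM in STK25 wKO and 30.02 CPM in WT, which counting error does not separate. In the epithelium, cluster 6 had 7.42 CPM of Vegfc in STK25 wKO and 18.7 CPM in WT (-1.33, -1.81 to -0.85). By contrast, stem-like cluster 7 had 29.4 and 18.0 CPM in STK25 wKO and WT (0.70, 0.16 to 1.26).

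Flt1 (chr5:147561604-147726011, minus strand) encodes a VEGF receptor with high affinity and weak kinase activity that also acts as a decoy. Its level in blood endothelial cells was 1611 CPM in STK25 wKO, from 2668 UMIs, and 1847 CPM in WT, from 1307 UMIs, a log2 ratio of -0.20 (-0.29 to -0.10). These cells held 78.0% of all Flt1 UMIs in STK25 wKO and 71.6% in WT. A UMI was found in 72.3% of STK25 wKO and 62.8% of WT blood endothelial cells (median depths 2029 and 1785.5 UMIs), and in 66.7% and 63.2% after thinning, against 1.97% (STK25 wKO) and 1.04% (WT) of B cells without thinning. Lymphatic endothelial cells had 18.9 CPM (10.6 to 31.3) in STK25 wKO and 17.3 CPM (7.89 to 32.8) in WT, intervals that overlapped those of B cells. Kdr (chr5:75932827-75978458, minus strand), the gene of the main signalling receptor of VEGF-A, had 470 CPM (437 to 504) in STK25 wKO and 486 CPM (436 to 540) in WT blood endothelial cells, a ratio of -0.05 (-0.23 to 0.14). Among lymphatic endothelial cells it had 301 CPM (264 to 341) in STK25 wKO and 362 CPM (313 to 418) in WT, a ratio of -0.27 (-0.55 to 0.01). In each library the blood endothelial level of Kdr was above the lymphatic level with no overlap of intervals.

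Flt4 (chr11:49609263-49652739, plus strand), the gene of the VEGF-C receptor, was the mirror image. It had 585 CPM (533 to 641) in STK25 wKO and 613 CPM (548 to 685) in WT lymphatic endothelial cells, from 463 and 320 UMIs, a log2 ratio of -0.07 (-0.28 to 0.14). Blood endothelial cells had 41.1 CPM in STK25 wKO and 35.3 CPM in WT, a ratio of 0.22 (-0.46 to 0.94). Lymphatic endothelial cells held 80.0% of all Flt4 UMIs in STK25 wKO and 83.1% in WT. In single cells, Kdr and Flt1 were both found in 44.8% of STK25 wKO and 38.3% of WT blood endothelial cells, and Kdr and Flt4 in 38.6% of STK25 wKO and 28.6% of WT lymphatic endothelial cells. At least 1 of the 5 receptors was found in 80.3% of STK25 wKO and 71.9% of WT blood endothelial cells. These shares were not thinned and rise with depth.

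Tek (chr4:94739289-94874976, plus strand), the gene of the angiopoietin receptor TIE2, had 171 CPM (152 to 192) in STK25 wKO and 284 CPM (246 to 326) in WT blood endothelial cells, from 283 and 201 UMIs. The intervals did not overlap, and the log2 ratio was -0.73 (-0.999 to -0.46), a level 0.602 of that of WT. Tek in lymphatic endothelial cells had 91.0 CPM in STK25 wKO and 132 CPM in WT (-0.54, -1.04 to -0.04). Outside the endothelium, Tek was counted in fibroblasts, with 24.0 CPM in STK25 wKO and 44.5 CPM in WT (-0.89, -1.38 to -0.40), mainly in cluster 8 (33.5 and 62.6 CPM in STK25 wKO and WT). The ratio was below 0 in all 3 classes, which come from the same 2 libraries and are no independent samples. Tie1 (chr4:118471191-118490061, minus strand), the gene of a related receptor that pairs with TIE2, had 248 CPM in STK25 wKO and 271 CPM in WT blood endothelial cells (-0.13, -0.38 to 0.13). Lymphatic endothelial cells had 207 CPM of Tie1 in STK25 wKO and 253 CPM in WT (-0.29, -0.63 to 0.05).

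Receptor genes of endothelial cells are classic targets of ETS transcription factors, whose binding sites share the core GGAA. The 250 bases before the start of Kdr (chr5:75978456-75978705), Flt1 (chr5:147726012-147726261), Tek (chr4:94739039-94739288) and Tie1 (chr4:118489850-118490099) are shown because these receptor genes had their highest level in blood endothelial cells, although the Tie1 intervals of blood and lymphatic endothelial cells overlapped in both libraries. The sequences are those of RefSeq on GRCm38.p6, written 5′ to 3′ on the strand of the gene, and capitals mark each GGAA or, on the other strand, TTCC. The starts are also those of RefSeq and can differ from the GENCODE positions given above. Most of the Tie1 window lies within the gene as GENCODE places it, with its first base at 118490061 on the minus strand.
Kdr: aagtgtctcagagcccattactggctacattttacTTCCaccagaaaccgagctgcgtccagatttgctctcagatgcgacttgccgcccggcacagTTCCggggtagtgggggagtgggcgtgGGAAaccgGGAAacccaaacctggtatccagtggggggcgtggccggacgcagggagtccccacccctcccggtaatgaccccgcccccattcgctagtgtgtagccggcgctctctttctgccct
Flt1: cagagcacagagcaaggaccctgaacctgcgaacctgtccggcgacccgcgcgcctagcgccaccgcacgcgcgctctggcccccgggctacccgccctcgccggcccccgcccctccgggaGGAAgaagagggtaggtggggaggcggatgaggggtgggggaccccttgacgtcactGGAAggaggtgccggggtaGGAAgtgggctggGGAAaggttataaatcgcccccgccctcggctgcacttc
Tek: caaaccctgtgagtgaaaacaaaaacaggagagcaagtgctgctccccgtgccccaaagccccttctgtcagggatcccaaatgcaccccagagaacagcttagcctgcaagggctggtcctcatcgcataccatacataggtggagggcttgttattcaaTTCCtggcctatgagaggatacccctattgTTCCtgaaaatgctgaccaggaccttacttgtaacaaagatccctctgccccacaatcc
Tie1: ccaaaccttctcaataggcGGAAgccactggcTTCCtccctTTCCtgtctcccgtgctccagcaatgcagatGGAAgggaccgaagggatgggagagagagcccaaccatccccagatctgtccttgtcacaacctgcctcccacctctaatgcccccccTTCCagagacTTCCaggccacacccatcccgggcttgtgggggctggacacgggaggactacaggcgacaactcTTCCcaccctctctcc
The Tie1 window held 7 cores, the Kdr and Flt1 windows held 4 each and the Tek window held 2. Of 32851 windows of the same length in the mouse table, 93.4% held at least 1 core, with a median of 3. At least 7 cores were found in 3.82%, at least 4 in 33.4% and at least 2 in 76.8% of windows. A match of these letters is not a binding site. The table matched 9 of the 10 genes, Angpt2 being the gene without a match.

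Angpt2 (chr8:18690263-18741562, minus strand), the gene of the Tie ligand made by remodelling vessels, showed the largest ratio of the 10 genes in blood endothelial cells. Its level was 47.1 CPM (37.2 to 58.8) in STK25 wKO, from 78 UMIs in 33 of 578 cells, and 11.3 CPM (4.88 to 22.3) in WT, from 8 UMIs in 6 of 274 cells. The intervals did not overlap, and the log2 ratio was 2.06 (1.01 to 3.32), a 4.17-fold higher level. The share of cells with a UMI was 5.71% in STK25 wKO and 2.19% in WT, and 2.08% and 0.995% after thinning, against 0.758% (STK25 wKO) and 0.246% (WT) of B cells without thinning. The gene lies within Mcph1 on the opposite strand, whose reads could be told apart only by strand. The lymphatic endothelial level of Angpt2 was 72.01 CPM (54.5 to 93.3) in STK25 wKO and 67.1 CPM (46.7 to 93.3) in WT, a ratio of 0.10 (-0.53 to 0.75). The classes with the most Angpt2 were thus lymphatic and, in STK25 wKO, also blood endothelial cells, with mural cells at 39.9 CPM (STK25 wKO) and 60.02 CPM (WT). Epithelial cells had 4.58 CPM in STK25 wKO and 5.03 CPM in WT. By their number and depth they held 48.3% of the UMIs of the gene in STK25 wKO and 57.2% in WT. B cells had 5.39 CPM of Angpt2 in STK25 wKO and 2.22 CPM in WT, from 5 and 4 UMIs. The epithelial level was thus no higher than theirs beyond counting error.

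In blood endothelial cells, 1 of the 10 members was past the fold upwards (Angpt2) and 1 downwards (Vegfc), against 6.0% of the 9933 genes compared there. In lymphatic endothelial cells 1 of 9 was past the fold, Pgf, against 8.91% of the genes compared. Pgf had 69.5 CPM (52.3 to 90.4) in STK25 wKO, from 55 UMIs in 17 cells, and 11.5 CPM (4.22 to 25.04) in WT, from 6 UMIs in 6 cells. The log2 ratio was 2.59 (1.38 to 4.10), a 6.04-fold higher level. In blood endothelial cells Pgf had 27 UMIs in STK25 wKO and 6 in WT (16.3 and 8.48 CPM), a ratio of 0.94 (-0.36 to 2.51). Several of these ratios were smaller after thinning, which left out 98 of 578 STK25 wKO and 73 of 274 WT blood endothelial cells and 34 of 233 STK25 wKO and 38 of 196 WT lymphatic endothelial cells. The log2 ratios became -0.72 for Vegfc in blood endothelial cells, -0.42 for Tek there and 0.47 for Pgf in lymphatic endothelial cells, so that Vegfc and Pgf were no longer past the fold, whereas Angpt2 had 2.55 in blood endothelial cells. No intervals were computed after thinning, and this Angpt2 ratio rested on fewer WT UMIs than the 8 counted without thinning. The shares of cells with an Angpt2 UMI after thinning, given above, differed less between the libraries than this ratio. In the same cells without thinning the ratios were -1.29 for Vegfc, -0.77 for Tek, 2.56 for Pgf and 1.99 for Angpt2.

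**Figure D3:**
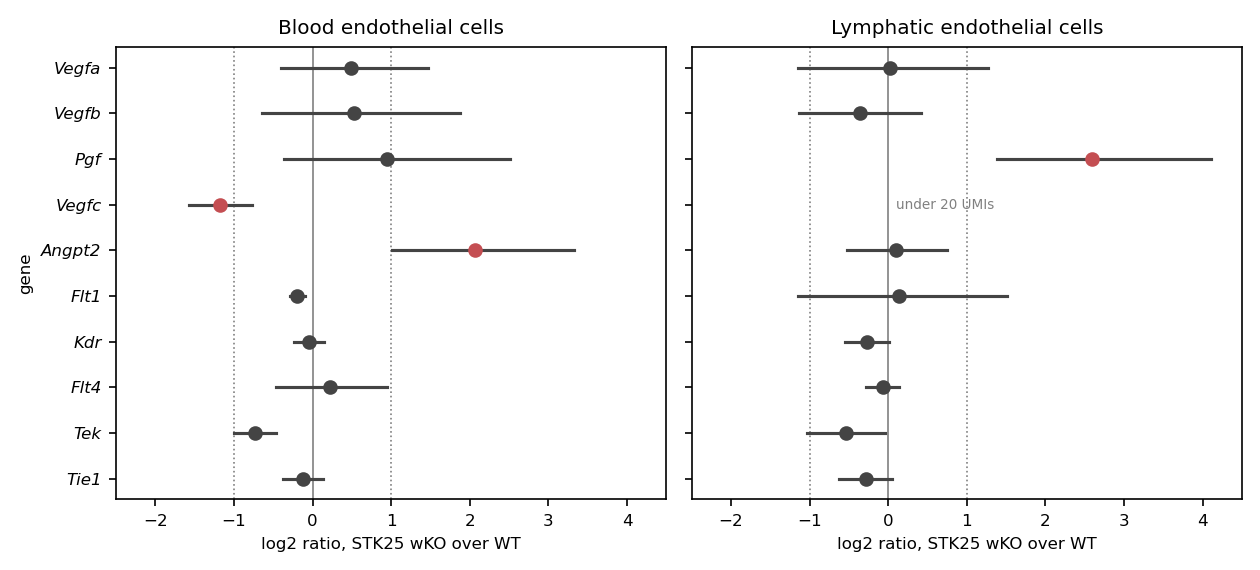
Log2 ratio of STK25 wKO to WT for each gene in blood (left) and lymphatic (right) endothelial cells, with bars for exact 95% intervals and dotted lines at 2-fold. Points past the fold are red: Angpt2 (2.06) and Vegfc (-1.17) on the left and Pgf (2.59) on the right, and Vegfc had too few UMIs on the right.

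The endothelial cells fell into subclusters that differed in members and in size between the libraries. Subcluster 4, with venous markers and led by Madcam1, Ackr1, Sele, Fjx1 and Adgrg6, held 96 STK25 wKO cells and 37 WT cells. In it, Angpt2 had 95.4 CPM (72.6 to 123) in STK25 wKO, from 59 UMIs in 20 cells, and 20.0 CPM (5.44 to 51.1) in WT, from 4 UMIs in 3 cells. The log2 ratio was 2.26 (0.82 to 4.18), and this subcluster alone held 59 of the 78 Angpt2 UMIs of STK25 wKO blood endothelial cells. Of those 59 UMIs, 51 lay in cells that also had a UMI of Esm1 and 50 in cells with one of Apln. Both genes are known from tip cells, the leading cells of a sprout. Counted by cells, 12 of the 20 STK25 wKO cells with Angpt2 had a UMI of Esm1 and 11 had one of Apln. Of the 4 WT UMIs of Angpt2, 2 lay in cells with Esm1 and 0 in cells with Apln. Pgf had 19 UMIs in 5 STK25 wKO cells and 0 UMIs in WT, and the exact interval of the log2 ratio began at 0.60. Tek and Vegfc went the other way in subcluster 4. Tek had 144 CPM in STK25 wKO and 354 CPM in WT (-1.30, -1.77 to -0.83), and Vegfc had 32.3 CPM in STK25 wKO and 110 CPM in WT (-1.76, -2.71 to -0.82). Kdr, Flt1 and Tie1 differed by less than counting error there, with ratios of -0.14, 0.09 and -0.19.

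A separate clustering at a finer resolution gave 2 subclusters with tip cell markers. The first, led by Cxcl9, Hbb-bs, 4930502E18Rik, Tubb3 and Prnd, held 49 STK25 wKO cells and 9 WT cells, of which 47 and 9 were cells of the venous subcluster 4. It had 128 CPM of Angpt2 (96.8 to 167) in STK25 wKO, from 55 UMIs, and 27.5 CPM (3.33 to 99.4) in WT, from 2 UMIs, intervals that overlap. The second, led by Pde1c, Xkr6, Kit, Zfand4 and Dcbld1, held 54 STK25 wKO cells and 14 WT cells, of which 51 and 14 came from subcluster 3, and had 77.8 CPM of Angpt2 (40.2 to 136) in STK25 wKO and 39.3 CPM (4.76 to 142) in WT, from 12 and 2 UMIs. The finer venous subcluster, 47 cells in STK25 wKO and 27 in WT, had 21.4 CPM (4 UMIs) and 18.3 CPM (2 UMIs) of Angpt2. Most Angpt2 UMIs of STK25 wKO blood endothelial cells thus lay in the first subcluster with tip markers. In each of these 3 finer subclusters the Poisson intervals of the levels overlapped between the libraries. Overlap of these intervals does not show equal levels, and the interval of the ratio was not computed for the finer subclusters. In the finer venous subcluster Tek had 262 CPM (194 to 347) in STK25 wKO and 559 CPM (427 to 718) in WT, and Vegfc 21.4 CPM (5.84 to 54.8) in STK25 wKO and 192 CPM (119 to 294) in WT. For both genes the intervals of the libraries did not overlap, whereas in both subclusters with tip markers they did.

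Capillary subcluster 2, led by Thrsp, Rbp7, Cd36, Pltp and Cxcl12, had 181 STK25 wKO cells and 49 WT cells, and its share of blood endothelial cells was 31.1% in STK25 wKO and 17.9% in WT. Of the receptor genes, Kdr, Flt1, Tie1 and Tek were lower in the STK25 wKO cells of this subcluster. Kdr had 610 CPM in STK25 wKO and 934 CPM in WT (-0.61, -0.91 to -0.31), and Flt1 had 2297 CPM in STK25 wKO and 3087 CPM in WT (-0.43, -0.59 to -0.26). Tie1 had 208 CPM in STK25 wKO and 383 CPM in WT (-0.88, -1.37 to -0.38), and Tek had 210 CPM in STK25 wKO and 334 CPM in WT (-0.67, -1.18 to -0.14). None of these intervals included equality, in contrast with the class as a whole for Kdr and Tie1. The share of all genes with such intervals was not computed for the subclusters, so that no background stands beside these ratios. Flt4 had a ratio of -1.01 (-2.29 to 0.37). Pecam1, a general endothelial marker, was also lower there, with 999 CPM in STK25 wKO and 1352 CPM in WT (-0.44, -0.68 to -0.19). Markers of other cells were higher: epithelial Epcam had 493 CPM in STK25 wKO and 237 CPM in WT, mural Rgs5 had 108 CPM in STK25 wKO and 41.8 CPM in WT, and neutrophil S100a8 had 676 CPM in STK25 wKO and 20.9 CPM in WT. Their part in the receptor ratios was not tested. Subcluster 3, led by Ccdc85a, Plcl1, Plcb1, Fam78b and Zfp462, had ratios for Kdr (0.25), Tek (-0.18) and Tie1 (0.56) whose intervals included 0. Flt1 was lower in it, with 1882 CPM in STK25 wKO and 2335 CPM in WT (-0.31, -0.51 to -0.11), and Flt4 was higher, with 105 CPM in STK25 wKO and 28.8 CPM in WT (1.87, 0.43 to 3.62), from 22 and 5 UMIs.

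Arterial subcluster 7, led by Gkn3, Col8a1, Pcsk5, Cytl1 and Gja5, was the richest source of Vegfc. Its 18 STK25 wKO cells had 618 CPM (449 to 830), from 44 UMIs, and its 16 WT cells had 628 CPM (440 to 869), from 36 UMIs. The level in these cells was therefore nearly equal, while they formed 3.11% of STK25 wKO and 5.84% of WT blood endothelial cells. Without them, the ratio of Vegfc in the remaining blood endothelial cells was -1.37. Tek was also nearly equal in arterial cells, with 309 CPM in STK25 wKO and 331 CPM in WT, and Angpt2 had 0 UMIs in both libraries, which allows up to 51.9 CPM in STK25 wKO and 64.4 CPM in WT. Kdr had 548 CPM in STK25 wKO and 174 CPM in WT (1.65, 0.62 to 2.82), from 39 UMIs in 7 cells and 10 UMIs in 6 cells, 22 of the STK25 wKO UMIs lying in 1 cell.

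Another large subcluster held shallow cells with epithelial transcripts. Subcluster 0, led by Rab25, Tff3, Cldn3, Muc2 and Sval1, formed 28.7% of STK25 wKO and 36.9% of WT blood endothelial cells. With its lymphatic cells it held 209 STK25 wKO cells and 114 WT cells, at median depths of 1060 and 878 UMIs. It had 1254 CPM of Epcam in STK25 wKO and 660 CPM in WT, beside 406 CPM of Flt1 in STK25 wKO and 334 CPM in WT. A further 27 cells, all of the STK25 wKO library, formed subcluster 8 with mural markers. Leaving out the subclusters with markers of other cell types changed the blood endothelial log2 ratios to 1.95 for Angpt2, -1.18 for Vegfc and -0.80 for Tek, close to the values over all cells.

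Most lymphatic cells lay in 3 subclusters of unequal size, and a further 43 STK25 wKO cells (18.5%) and 13 WT cells (6.63%) lay in subcluster 0. Subcluster 6, led by Ccl2, Scn3a, Ccl7, Ccl5 and Tnc, held 48 STK25 wKO cells (20.6% of lymphatic cells) and 2 WT cells (1.02%). It carried 50 of the 55 STK25 wKO UMIs of Pgf, in 12 cells with up to 16 UMIs each, at 142 CPM (105 to 187), and 45 UMIs of Angpt2, at 128 CPM (93.1 to 171). The 2 WT cells held 0 UMIs of Pgf and 2 of Angpt2, so that this state could not be compared. Without subcluster 6, the log2 ratio of Pgf in lymphatic endothelial cells was -0.04 and that of Angpt2 was -1.23. Subcluster 5, led by Lypd6, Foxp2, Ahsg, Cldn11 and Slc29a4, held 16 STK25 wKO cells (6.87%) and 46 WT cells (23.5%). It had 1 UMI of Angpt2 in STK25 wKO and 23 in WT, that is 14.5 CPM (0.368 to 80.9) and 106 CPM (66.9 to 158). In the main lymphatic subcluster 1, led by Kcnn3, Tppp3, Fndc1, Ccl21a and Gucy1b1, Angpt2 (44.2 and 38.1 CPM), Flt4 (664 and 713 CPM), Kdr (370 and 309 CPM) and Tek (121 and 118 CPM) in STK25 wKO and WT differed by less than counting error. The libraries were clustered without batch correction, so that a subcluster mostly of 1 library may reflect that library.

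**Figure D4:**
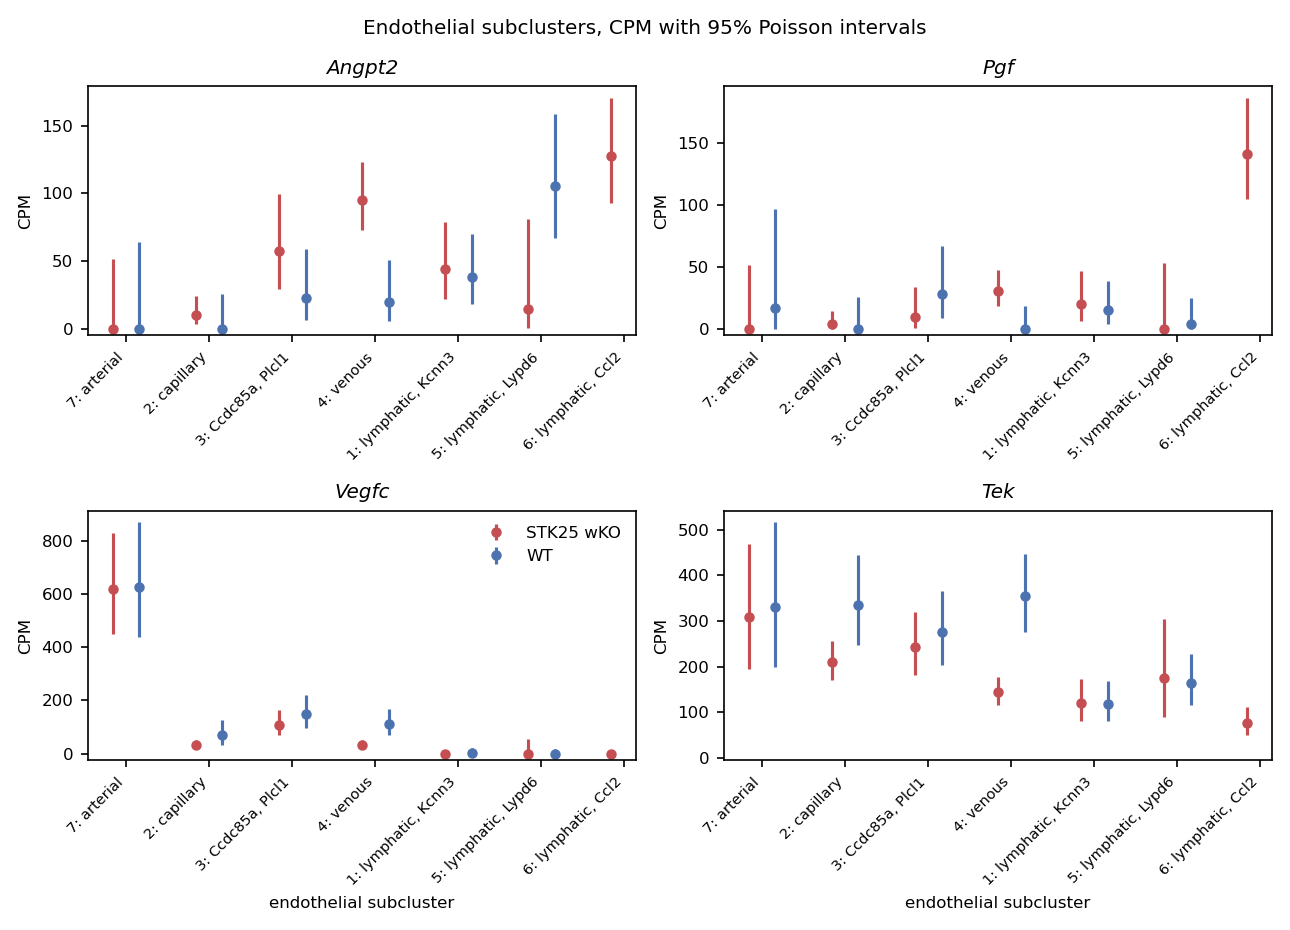
Angpt2, Pgf, Vegfc and Tek levels in CPM in 7 endothelial subclusters, with STK25 wKO left of WT and bars for 95% Poisson intervals, groups of fewer than 10 cells not being drawn. Angpt2 stood at 95.4 CPM in STK25 wKO and 20.0 CPM in WT cells of subcluster 4, and Vegfc stood at 618 CPM in STK25 wKO and 628 CPM in WT arterial cells. Subcluster 4 is labelled venous by its markers, but at a finer resolution it also held cells with tip cell markers.

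Mural cells (166 in STK25 wKO and 92 in WT), the pericytes and smooth muscle that wrap vessels, had 426 CPM of Flt1 in STK25 wKO and 404 CPM in WT. Most of it came from cells that also had UMIs of at least 2 blood endothelial markers, 40 in STK25 wKO and 17 in WT, with 946 and 984 CPM of Flt1. In the other mural cells Flt1 was 58.8 CPM in STK25 wKO and 32.8 CPM in WT, and Tek was at 0 UMIs in both libraries, which allows up to 11.4 CPM in STK25 wKO and 24.2 CPM in WT. Angpt2 did not follow this division, with 40.3 CPM in the STK25 wKO and 52.5 CPM in the WT mural cells that had fewer than 2 endothelial markers. Vegfc in WT had 143 CPM (14 UMIs) in the cells with at least 2 and 32.8 CPM (5 UMIs) in the others, without overlap of intervals. In STK25 wKO these parts had 52.6 CPM (12 UMIs) and 40.3 CPM (13 UMIs) of Vegfc, with overlapping intervals. None of the 8 members compared in mural cells was past the fold, against 10.7% of all genes compared there.

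Further genes of the pathway were taken from 4 lists. Of the list of further ligands, co-receptors and processing factors (12 genes), 6 were compared in blood endothelial cells and 1 was past the fold, Angptl4, a secreted lipase inhibitor (20 UMIs in STK25 wKO, 2 in WT), against 6.0% of all genes compared there. Their median log2 ratio was -0.26, against -0.02 over all genes compared. Ptprb, the phosphatase that restrains TIE2, had 870 CPM in STK25 wKO and 1196 CPM in WT blood endothelial cells (-0.46, -0.58 to -0.33), and the VEGF co-receptor gene Nrp1 had 321 CPM in STK25 wKO and 423 CPM in WT (-0.40, -0.60 to -0.19). Ptprb was, in lymphatic endothelial cells, past the fold in the other direction, with 361 CPM in STK25 wKO and 163 CPM in WT (1.15, 0.79 to 1.52), the only 1 of 5 compared, against 8.91% of all genes compared there. Without lymphatic subcluster 6 it had 237 CPM in STK25 wKO and 146 CPM in WT (0.70, 0.26 to 1.15) and was no longer past the fold. The lymphatic co-receptor gene Nrp2 had 413 CPM in STK25 wKO and 383 CPM in WT lymphatic cells (0.11, -0.15 to 0.37).

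Of 23 tip cell and VEGF response genes, all were compared in blood endothelial cells and 1 was past the fold, against 6.0% of all genes. This was Apln, the ligand of the apelin receptor, with 76.1 CPM in STK25 wKO (126 UMIs) and 15.6 CPM in WT (11 UMIs), a ratio of 2.29 (1.40 to 3.33). The median of the list was 0.25, against -0.02 for all genes. The basement membrane collagens Col4a1 (2133 CPM in STK25 wKO, 1492 CPM in WT) and Col4a2 (1420 CPM in STK25 wKO, 989 CPM in WT) had ratios of 0.51 and 0.52, with counting intervals above 0. In lymphatic endothelial cells 17 of the 23 were compared, of which 6 were past the fold upwards (Col4a1, Col4a2, Igfbp3, Jag1, Plxnd1 and Trp53i11) and 3 downwards (Dll4, Adm and Hey1), against 8.91% of all genes in either direction, with a median of 0.60 against 0.09 for all genes. Col4a1 had 788 CPM in STK25 wKO and 266 CPM in WT there, and the Notch ligand gene Dll4 had 34.1 CPM in STK25 wKO and 86.3 CPM in WT. Without subcluster 6, 3 of 17 genes of this list were past the fold in lymphatic cells (Igfbp3 upwards, Adm and Nid2 downwards), in place of 9, against 9.50% of all genes compared in those cells.

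Endothelial transcription factor and junction genes gave no gene past the fold in blood (0 of 18, against 6.0% of all genes) or lymphatic (0 of 17, against 8.91%) endothelial cells. Without subcluster 6, 1 of 17 was past the fold in lymphatic cells, Gata2, downwards. Klf2, a flow-responsive factor, had 1328 CPM in STK25 wKO and 1018 CPM in WT blood endothelial cells (0.38), Cdh5, the VE-cadherin gene, had 552 CPM in STK25 wKO and 425 CPM in WT (0.38), and Pecam1 had 1067 CPM in STK25 wKO and 1159 CPM in WT (-0.12, -0.24 to 0.00). Cldn5, a tight junction gene, had 451 CPM in STK25 wKO and 702 CPM in WT lymphatic cells (-0.64, -0.85 to -0.42).

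Hypoxia response genes were read in the sources of Vegfa, which is itself induced by hypoxia. In epithelial cells, 18 of 18 were compared and 1 was past the fold, against 6.86% of all genes. This was Adm (19.6 CPM in STK25 wKO, 42.6 CPM in WT), with 14 of 18 ratios below 0 and a median of -0.34 against -0.15 for all genes. The 4 with the most UMIs did not share a direction. Hif1a had 134 CPM in STK25 wKO and 196 CPM in WT (-0.54), whereas Ldha (0.06), Pgk1 (0.15) and Higd1a (0.24) lay above 0. In macrophages or monocytes the median was 0.40 against -0.11 for all genes, with 2 of 17 past the fold, against 9.68% of all genes. Ero1l, which supports disulphide formation under low oxygen, had 333 CPM in STK25 wKO and 163 CPM in WT (1.03, 0.80 to 1.28), and P4ha1 was past the fold downwards. Ldha had 628 CPM in STK25 wKO and 361 CPM in WT macrophages (0.80, 0.64 to 0.96), beside a Vegfa ratio of -0.02. Both are class values, and the Vegfa ratio combined 2 clusters in different proportions, as described above. The list was not read by macrophage cluster. In neutrophils its median was 0.15 against -0.12 for all genes. There 1 of 17 genes was past the fold upwards and 2 downwards, against 11.6% of all genes.

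The patterns of the 10 genes over 20 profiles, each a class of at least 50 cells in 1 library, were compared with those of 15288 genes by Pearson's r of log2(CPM + 10). This is a description, since the profiles share 2 libraries and differ in depth. Kdr was most like Shank3, Tie1 and Podxl, Tie1 most like Podxl, Egfl7 and Dysf, and Tek most like Fgd5, Dnm3 and Zfp423, each with r of 0.98 or 0.99. Flt1 was nearest to Col13a1, Esam and Tcf15 (0.98 to 0.99) and Flt4 to Dmtn, Klhl4 and Megf6 (0.97 to 0.98). Of the ligands, Vegfc was nearest to Nkx2-3, Efhd1 and Jam2 (0.95 each), Angpt2 to Cyp4b1, Apold1 and Bcr (0.91 to 0.94) and Vegfb to Tmem107, Gpr180 and Tppp3 (0.91 to 0.94). Vegfa was nearest to 4930430E12Rik and F7 (0.91 each) and Sirpb1c (0.90), and Pgf had the least close neighbours, Vps35 (0.85) and Pald1 (0.79).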

How the data were processed

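The 2 matrices that the authors deposited hold raw UMI counts of 1 library each and were, per the file headers, made with Cell Ranger 7.1.0. The labels give the build mm10 and name Seurat without a role. No barcode had fewer than 500 UMIs. Barcodes with fewer than 200 genes or over 25% mitochondrial UMIs were dropped, that is 3 and 282 STK25 wKO barcodes and 2 and 270 WT barcodes. Leiden clustering (resolution 1, and 0.8 within the endothelium) used log-transformed counts per 10000 of 2000 variable genes, from which the members were left out, with 30 principal components, 20 neighbours and no batch correction (Python 3.11.15, scanpy 1.11.5, leidenalg 0.10.2, scipy 1.17.1, seed 0). To be named, a cluster needed 3 markers or more that reached 10% of its cells and exceeded the median cluster by 5 percentage points, thresholds set after seeing the data. A cluster also stayed unnamed when its 10 leading genes went against the name. Doublets were kept, since Scrublet's automatic threshold marked 0 cells, and an alternative removed 1542 STK25 wKO and 1204 WT cells.

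Levels are summed UMIs per 1000000 with exact Poisson intervals, log2 ratios have exact conditional binomial intervals and no pseudocount, and shares have Clopper-Pearson intervals. A ratio was past the fold when at least 2-fold with an interval that excluded equality, for genes with at least 20 UMIs. No test was possible with 1 library per group. Only the fold call and the ratio intervals were tested on simulated data. These were class totals drawn as independent Poisson counts, the model that the intervals assume, so that clustering, class names and clumped UMIs were not tested. The members and lists were chosen with earlier results of these data known. Genes named beside the members are the 4 of each list with the most UMIs and those past the fold, as space allowed, the 3 nearest in pattern and the 5 leading genes of a cluster. An item that this rule names is not reported here. The alternatives that leave out subclusters, single cells or shared barcodes, or keep cells of at least 1000 UMIs without thinning, were chosen after seeing the data.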

Additional observations from a re-analysis of the deposited data

How the results depend on the processing

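Of 740 log2 ratios of single genes recomputed under other settings for 54 results, 700 stayed within the counting interval of the reported value, 39 moved outside it and 1 reversed. Averaging UMIs per 10000 over cells gave -0.71 for Vegfc in blood endothelial cells, 1.19 for Pgf in lymphatic endothelial cells, -0.34 for Vegfa in epithelial cells and 0.43 for Vegfa in macrophages or monocytes. Thinning to 1000 UMIs, with cells of fewer UMIs left out, gave -0.72 for Vegfc and -0.42 for Tek in blood endothelial cells, 0.47 for Pgf in lymphatic endothelial cells and 0.21 for Vegfa in macrophages or monocytes. The same cells without thinning moved 0 of 53 ratios. Setting the median ratio of all genes to 0 gave -0.45 for Vegfa in epithelial cells. The reversal was Pgf in lymphatic endothelial cells without subcluster 6, at -0.036, a setting that removed 48 STK25 wKO cells and 2 WT cells. The causes of the other moves were not tested. Leaving out subcluster 6 also moved the count of genes past the fold in 3 of 4 lists. Angpt2 in blood endothelial cells ranged from 1.71 to 2.55 and Vegfa in dendritic cells from 1.48 to 2.79 over all settings run. Of 356 counts of list genes past the fold, 70 moved, and of 56 levels by cluster, 26 did. Of 160 shares of cells with a UMI, which were recomputed only with thinning, 104 moved. Of 24 shares of cells in the endothelial classes, 3 moved, each under a stricter cell filter. Depth limited the values of Pgf and Angpt2 in WT endothelial cells, which rested on 6 to 35 UMIs. No paired analysis was possible because each group had 1 library.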
